A study of Mus musculus with 3 samples.

Results

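CT26.WT cells are a line grown from a mouse carcinoma of the colon. The genes described here encode the Tlr4 receptor complex and the adaptors, kinases and ubiquitin ligase that act directly behind it. They were chosen by name, as every probe set annotated with exactly 1 of 10 gene symbols: Tlr4, Ly96, Cd14, Tirap, Myd88, Irak4, Irak1, Traf6, Ticam2 and Ticam1. In the probe annotation, 8 of the 10 symbols were found, with 19 of the 45101 probe sets of the array, out of 18193 named genes. Irak4 and Ticam2 had no probe set annotated with their symbol alone, so their transcripts were not read here. The cells lay 12 h without serum and then received 4 µg/ml of recombinant mouse S100a8, or of recombinant mouse S100a9, for 24 h. The third culture was the control, which its title describes as given BSA and its description and the series design as given normal saline. No serum-free time or exposure time was recorded for the control here. The source and endotoxin content of the recombinant proteins are not stated in the labels. RNA of each culture was measured on 1 Affymetrix Mouse Genome 430 2.0 array, so each group held 1 array and no test was possible.

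Tlr4 is the cell surface receptor for bacterial lipopolysaccharide and is also a described receptor for S100a8 and S100a9. It binds its ligands together with Ly96 (MD-2), while Cd14 hands lipopolysaccharide to this pair. From the plasma membrane, Tirap and Myd88 recruit the kinases Irak4 and Irak1 and the ubiquitin ligase Traf6, which leads to NF-kB. From endosomes, Ticam2 (TRAM) and Ticam1 (TRIF) lead to Irf3 and type I interferon. Whether exposure to either protein is accompanied by a different level of these transcripts is the question of the comparisons below.

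Values are MAS5 signals, a linear intensity in arbitrary units, and a log2 ratio is computed from 2 single arrays. A floor was placed at the median of all signals (76.0), and dimmer signals were raised to it. Each gene was represented by its brightest probe set, and 11138 genes whose mean signal lay above the floor were compared. All 8 members found were among them. Median signals were 78.6 (S100a8), 73.6 (S100a9) and 76.1 (control). With no replicate arrays, the only repeat measure was a further probe set of the same gene on the same arrays. Over 4948 genes with at least 2 probe sets above the floor, the log2 ratios of such a pair lay a median of 0.15 apart for S100a8 against control, of 0.12 for S100a9 against control, and of 0.13 between the proteins. The widest 10% of these gaps began at 0.45, 0.36 and 0.39. Precision is limited throughout by the use of 1 array per group. The 2 comparisons with control share the control array, so their values are given side by side only.

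Transcripts of the receptor, of both co-receptors and of 5 intracellular members gave signals above the floor on all 3 arrays. Of the 8 members, Ly96 alone was at least 1.5-fold from control, and it was lower with either protein. With S100a8, 1 of 8 members was thus at least 1.5-fold lower, where 1.91% of all compared genes were. With S100a9 it was again 1 of 8, where 0.853% of all compared genes were. At least 1.5-fold higher were 0 of 8 members with either protein, where 1.13% of all compared genes were with S100a8 and 0.251% with S100a9. The members' median log2 ratio was −0.06 with S100a8, against a median of 0.012 over all compared genes. With S100a9 it was −0.02 (0.03 after median centring), against 0.0045 over all compared genes.

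**Figure D1:**
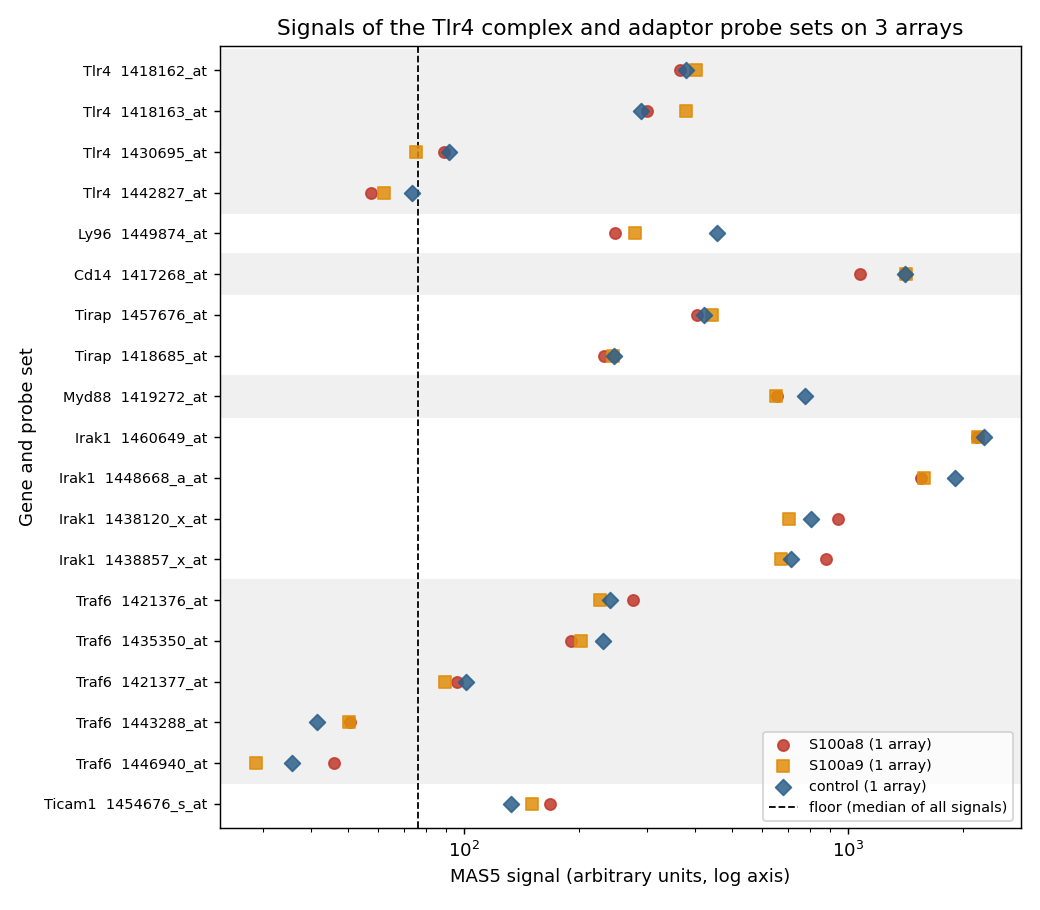
MAS5 signal (arbitrary units, log axis) of the 19 probe sets of the members on the S100a8, S100a9 and control arrays, 1 point per array; the dashed line is the floor of 76.0. The Ly96 points of both treated arrays lie left of the control point, while the 3 Tlr4 points of the brightest probe set lie within 365 to 404.

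Tlr4 itself had nearly the same signal on the 3 arrays by its brightest probe set. That probe set gave 365 with S100a8 and 404 with S100a9, against 380.5 in the control, with log2 ratios of −0.06 and 0.09 against control. A log2 ratio further from 0 was found for 77.0% of all compared genes with S100a8 and for 59.1% with S100a9. A further Tlr4 probe set gave 299.9 with S100a8 and 379.6 with S100a9, against 289 in the control. Its S100a9 signal stood above the other two, with log2 ratios of 0.05 with S100a8 and 0.39 with S100a9. A dim one gave 89.0, 75.2 and 91.4 in the same order of arrays and so lay at the floor with S100a9, and the dimmest lay below the floor on all 3 arrays (57.3, 62.0 and 73.5). The 3 Tlr4 probe sets above the floor therefore ran from −0.06 to 0.05 with S100a8 and from −0.27 to 0.39 with S100a9, and did not share a direction in either comparison.

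Ly96 encodes the small secreted protein that sits on the outer part of Tlr4 and holds the ligand. Its signal was 248 with S100a8 and 280.0 with S100a9, against 456 in the control. Both treated arrays were low and near each other, and the control array was high. Ly96 was 1.84-fold lower than control with S100a8 (log2 ratio −0.88) and 1.63-fold lower with S100a9 (−0.70). Among the 11138 compared genes it ranked 54 from the lowest with S100a8 and 50 from the lowest with S100a9. Between the proteins its log2 ratio was 0.18 (S100a9 against S100a8), a size exceeded by 29.0% of compared genes. Ly96 was read by a single probe set, so no second probe set bears on these values. In such bulk RNA, fewer cells carrying a transcript and less of it per cell cannot be told apart.

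Cd14, the co-receptor that delivers ligand to Tlr4 and Ly96, had a lower signal with S100a8 and not with S100a9. Its signal was 1075 with S100a8 and 1418 with S100a9, against 1413 in the control. The S100a8 array was thus the low one, and the S100a9 and control arrays were nearly equal. The log2 ratio was −0.39 with S100a8, exceeded in size by 10.8% of compared genes, and 0.0053 with S100a9. Set directly against each other, Cd14 was 1.32-fold higher with S100a9 than with S100a8 (log2 ratio 0.40), and it ranked 82 from the highest of the compared genes. That rank falls in a comparison where 0.0988% of compared genes were at least 1.5-fold higher and 1.01% at least 1.5-fold lower, and Cd14 did not reach that size. It, too, had a single probe set.

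Behind the receptor, Tirap, the adaptor that brings Myd88 to the membrane, differed least among the members read by several probe sets. The brighter of its 2 probe sets gave 405 with S100a8 and 443 with S100a9, against 422 in the control, and the other 233, 245 and 246. Their log2 ratios were −0.06 and −0.08 with S100a8, and 0.07 and −0.0038 with S100a9. Myd88, the adaptor shared by most Toll-like receptors and the IL-1 receptor family, had signals of 655 with S100a8 and 651 with S100a9, against 776 in the control. Both treated arrays were below the control and nearly equal, with log2 ratios of −0.24 and −0.25. A log2 ratio further from 0 was found for 28.2% of compared genes with S100a8 and for 15.0% with S100a9.

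**Figure D2:**
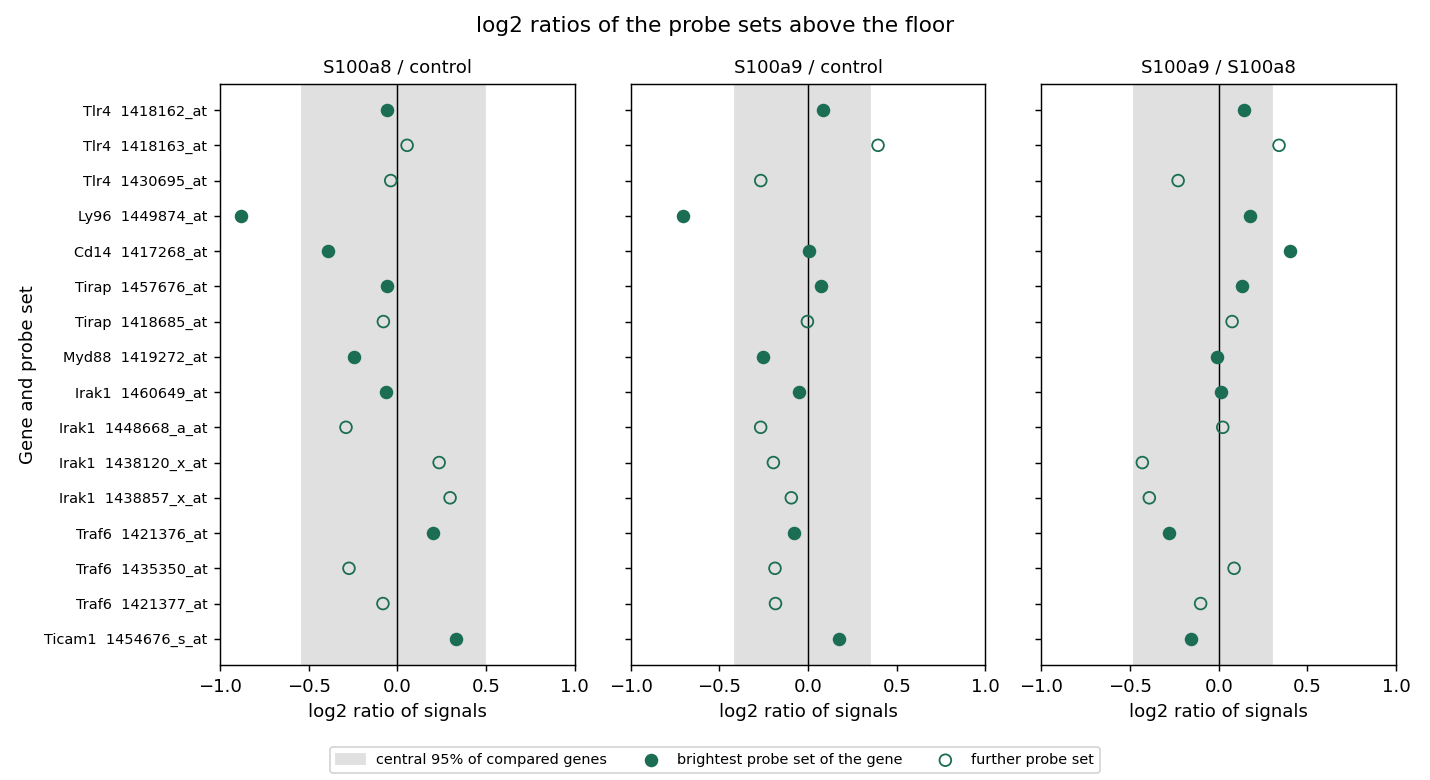
log2 ratios of the 16 member probe sets above the floor for either protein against control (left and middle) and for S100a9 against S100a8 (right). Filled points are the brightest probe set of a gene, open points its further probe sets, and grey bands hold the central 95% of the compared genes (−0.54 to 0.49, −0.41 to 0.35 and −0.48 to 0.30); Ly96 lies outside the band in both comparisons with control, a further Tlr4 probe set outside it with S100a9, and Cd14 and that Tlr4 probe set outside it in the right panel.

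The promoters of 1 adaptor of each arm are shown because Myd88 was below control and Ticam1 above control on both treated arrays. This choice rests on 1 probe set per gene. Each window is the RefSeq sequence of GRCm38.p6 that runs from 250 bases before the annotated gene start to 50 bases after it, on the minus strand, 5′ to 3′. The Myd88 window is chr9:119339969-119340268 and the Ticam1 window chr17:56276718-56277017. Capitals mark matches on either strand to 5 letter patterns: GAAA and a further GAAA with any 2 bases between them (as in interferon response elements), GGGA and CC with any 4 bases between them (as in NF-kB sites), GAGGAA (the PU.1 core), GGGCGG (the GC box) and TATAAA (the TATA box).
Myd88: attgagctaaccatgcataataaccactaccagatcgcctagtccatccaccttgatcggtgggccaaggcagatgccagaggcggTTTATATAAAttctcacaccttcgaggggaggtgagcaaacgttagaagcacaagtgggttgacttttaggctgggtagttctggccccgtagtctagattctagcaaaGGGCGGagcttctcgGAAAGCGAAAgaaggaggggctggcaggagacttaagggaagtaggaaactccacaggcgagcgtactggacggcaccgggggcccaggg
Ticam1: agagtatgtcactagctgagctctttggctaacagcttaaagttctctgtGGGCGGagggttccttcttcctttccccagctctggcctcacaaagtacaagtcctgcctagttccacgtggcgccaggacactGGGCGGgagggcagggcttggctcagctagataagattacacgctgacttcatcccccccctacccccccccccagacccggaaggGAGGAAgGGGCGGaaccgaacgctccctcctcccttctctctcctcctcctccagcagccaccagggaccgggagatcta
In the Myd88 window the capitals mark, from the left, overlapping TATA letters on both strands, 1 GC box and 1 interferon-type pattern, the last at position −40 with the start base as 0. The Ticam1 window holds 3 GC boxes and 1 PU.1 core, and the last GC box stands 1 base behind the PU.1 letters. Neither window holds the NF-kB letters. Of the 32851 promoter windows of that table, 3.44% hold the interferon-type letters, 20.7% the NF-kB letters, 28.3% the PU.1 core, 35.7% a GC box and 13.6% a TATA box. These matches describe letters and were not tested for binding, and their part in the signals was not tested. Windows of 6 of the 10 symbols were searched for these letters, and those of the remaining symbols, Ly96 among them, were not. Among the windows of Traf6, Tirap, Irak4, Irak1 and Ticam1 none holds the interferon-type letters. Traf6, Irak1 and 1 of the 2 Tirap windows hold the NF-kB letters.

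Irak1, the kinase recruited to Myd88 through Irak4, was read by 4 probe sets that did not move together. The brightest gave 2167 with S100a8 and 2187 with S100a9, against 2266 in the control, which is level on the 3 arrays, with log2 ratios of −0.06 and −0.05. The next gave 1552, 1577 and 1898, so that both treated arrays were low, with log2 ratios of −0.29 and −0.27. The remaining pair, whose names end in _x_at, the manufacturer's mark for probes that may also bind other transcripts, was highest with S100a8. One gave 946, 702 and 804 and the other 877, 669 and 714. With S100a8 the log2 ratios of this pair were 0.23 and 0.30, opposite in sign to the first 2 probe sets. With S100a9 all 4 were below control, from −0.27 to −0.05. Over its 4 probe sets the log2 ratio for S100a8 had an SD of 0.27, larger than its distance from 0 in the brightest. With all 4 averaged, the log2 ratio for S100a8 was 0.04 in place of −0.06, and that between the proteins (S100a9 against S100a8) −0.20 in place of 0.01.

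Traf6, the ubiquitin ligase that passes the signal on to Map3k7, was similarly divided with S100a8. Its brightest probe set gave 275 with S100a8 and 227 with S100a9, against 239.9 in the control, so the S100a8 array was the high one. The second gave 190.5, 202 and 230.2, with the S100a8 array the low one. A dimmer one gave 96.0, 89.5 and 102. The log2 ratios were 0.20, −0.27 and −0.08 with S100a8, and −0.08, −0.19 and −0.18 with S100a9, so a shared sign was seen only with S100a9. Another pair of Traf6 probe sets lay below the floor on all 3 arrays (28.9 to 50.7), so the log2 ratios of that pair are 0 by construction. With all 5 probe sets averaged, that pair included, the log2 ratio for S100a8 was −0.03 in place of 0.20.

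Ticam1, the adaptor of the endosomal arm, had its highest signal with S100a8. It gave 167.5 with S100a8 and 150.3 with S100a9, against 133 in the control. Both treated arrays were above the control, with log2 ratios of 0.33 and 0.17, the highest among the brightest probe sets of the members with either protein. A log2 ratio further from 0 was found for 16.4% of compared genes with S100a8 and for 29.4% with S100a9. This was the dimmest member, on 1 probe set, whose _s_at ending marks probes shared by several transcripts. With S100a8 the compared genes of its brightness had a log2 ratio of 0.08 in the median. With that median taken off, its log2 ratio was 0.25.

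Side by side, 6 of 8 members were below control with S100a8 and 4 of 8 with S100a9. Of all compared genes, 47.5% were below control with S100a8 and 48.1% with S100a9. Ly96, Myd88 and Irak1 were below control with both proteins and Ticam1 above control with both. Tlr4, Cd14, Tirap and Traf6 had opposite signs under the 2 proteins, the log2 ratios of Tlr4 and Tirap all lying within 0.09 of 0. S100a9 against S100a8, 0 of 8 members were at least 1.5-fold apart, where 1.01% of all compared genes lay that far below and 0.0988% that far above. The members' log2 ratios ran from −0.28 (Traf6) to 0.40 (Cd14) with a median of 0.07, against 0.018 over all compared genes. The Traf6 value was −0.06 with all its probe sets averaged, those below the floor included, and its second probe set had 0.09. Counted by probe set, 11 of the 16 above the floor were below control with S100a8 and 11 of 16 with S100a9. These counts repeat genes, since Irak1 has 4 of the 16 and Tlr4 and Traf6 have 3 each. The share over all probe sets was not computed, so no lean of the members is read from them.

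**Figure D3:**
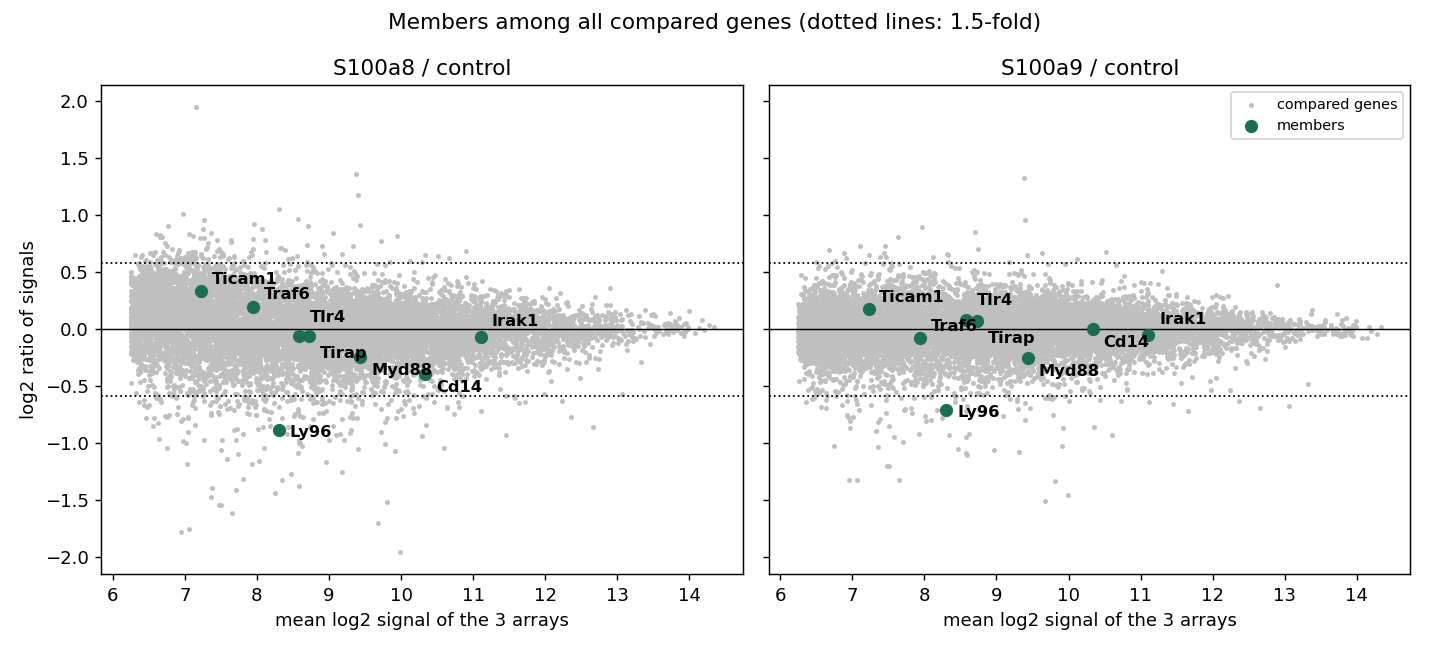
log2 ratio against control (vertical axis) by mean log2 signal of the 3 arrays (horizontal axis) for 11138 compared genes in grey, with the 8 members in green, for S100a8 (left) and S100a9 (right). Ly96 is the member below the lower 1.5-fold line in both panels, and the grey cloud narrows as signals grow brighter.

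The genes with log2 ratios nearest to those of Ly96 in both comparisons with control were sought among 10305 genes above the floor on all 3 arrays. The distance was Euclidean over the 2 log2 ratios, and 11 genes lay within 0.1. The nearest was Cxcl1, a neutrophil-attracting chemokine, with signals of 5104 (S100a8), 5744 (S100a9) and 9268 (control) and a distance of 0.025. Next came Zc3h12a, the RNase regnase-1 that degrades cytokine mRNAs (205, 223 and 377, at 0.054). The third was Egr1, an immediate-early transcription factor (2132, 2567 and 4044, at 0.064). With 3 arrays, this likeness rests on 3 points that share 1 control.

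The other genes of the pathway were followed as 8 lists with 116 genes, of which 109 were named in the annotation and 80 were compared. Partners and chaperones of the receptor lay close to control. Of 8 compared, 4 were higher and 4 lower with S100a8, and 5 higher and 3 lower with S100a9. Over all compared genes, 47.5% were lower with S100a8 and 48.1% with S100a9. The list's medians were 0.08 (−0.08 with the floor at the 65th percentile) and 0.07, and none of the 8 was at least 1.5-fold apart. At that size, 1.91% of all compared genes were lower and 1.13% higher with S100a8, and 0.853% and 0.251% with S100a9. Lbp, the serum protein that carries lipopolysaccharide to Cd14, had log2 ratios of 0.31 and 0.08, and the Toll-like receptor chaperone relative Cnpy4 had 0.25 and 0.29. Tril, a co-receptor of Tlr4 and Tlr3, had 0.16 and −0.01.

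Of the other Toll-like receptors and their trafficking factor, 11 were named and 4 compared, and the other 7 lay below the floor on all 3 arrays. Tlr3, the double-stranded RNA receptor that signals through Ticam1 without Myd88, gave 165 with S100a8 and 181 with S100a9, against 223 in the control. Both treated arrays were low, with log2 ratios of −0.43 and −0.30. Unc93b1, which carries nucleic acid-sensing receptors to endosomes, had 0.13 and 0.19, and Tlr12 had 0.10 and −0.18. Tlr7, a receptor for single-stranded RNA, lay above the floor with S100a8 only (89.5), and its S100a9 (69.9) and control (74.6) signals were below it. The list's median was 0.11 with S100a8, but −0.43 with the floor at the 65th percentile and −0.04 after centring by brightness, so it has no settled sign. With S100a9 it was −0.09.

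The IL-1 receptor family, which uses the same Myd88, Irak and Traf6 proteins, lay below control in each compared member. Of 4 compared genes, 4 were lower with S100a8, 2 of them at least 1.5-fold, where 1.91% of all compared genes were. With S100a9, 4 were lower, 0 of them at least 1.5-fold, where 0.853% of all compared genes were. Below control by any amount were 47.5% of all compared genes with S100a8 and 48.1% with S100a9. The medians were −0.47 with S100a8 and −0.25 with S100a9. Il1rap, the accessory chain that IL-1 and IL-33 receptors share, gave 93.9 with S100a8 and 122 with S100a9, against 151 in the control, with log2 ratios of −0.68 and −0.31. Il1rl2, the IL-36 receptor, gave 367 with S100a8 and 455 with S100a9, against 572 in the control (−0.64 and −0.33). In both genes the S100a8 array was lowest and the control highest. Il1rl2 was read by an _s_at probe set. With _x_at and _s_at probe sets passed over, the list's medians were −0.31 with S100a8 and −0.18 with S100a9.

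Kinases, ubiquitin enzymes and adaptors further down had 22 compared genes, 16 lower with S100a8 and 13 lower with S100a9. The share below control over all compared genes was 47.5% with S100a8 and 48.1% with S100a9. None of the 22 was at least 1.5-fold apart from control. At that size, 1.91% of all compared genes were lower and 1.13% higher with S100a8, and 0.853% and 0.251% with S100a9. Their medians were −0.10 and −0.05. Irak2, the kinase that sustains Myd88 signalling after Irak1, gave 342 with S100a8 and 351 with S100a9, against 481 in the control (log2 ratios −0.49 and −0.45). Map3k8, the Tpl2 kinase upstream of ERK, had −0.57 and −0.41. Ikbkg, the regulatory subunit of the IkB kinase, had 0.16 and 0.28, and Tab3, a partner of Map3k7, had −0.29 and 0.05. Ikbke, a kinase that acts on Irf3, had −0.08 and −0.42. Map3k8 and Irak2 were thus the lowest of this list with S100a8, and Irak2, Ikbke and Map3k8 with S100a9.

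Inhibitors of the pathway had 17 compared genes, with 12 lower under either protein, 3 of them at least 1.5-fold in each case. That far below control were 1.91% of all compared genes with S100a8 and 0.853% with S100a9. Below control by any amount were 47.5% of all compared genes with S100a8 and 48.1% with S100a9. The list's medians were −0.13 with S100a8 and −0.01 with S100a9. The S100a9 value turned above 0 with median centring (0.03), quantile normalization (0.0016) or all probe sets averaged (0.0033). Tnfaip3, the ubiquitin-editing enzyme A20 that takes down Traf6 signalling and is itself an NF-kB target, gave 749 with S100a8 and 769 with S100a9, against 1566 in the control. Traf1 gave 95.9 with S100a8 and 109 with S100a9, against 189 in the control, and Zc3h12a was the third gene past 1.5-fold in both comparisons (log2 ratios −0.88 and −0.76). Tnfaip3, Traf1 and Zc3h12a are all known NF-kB target genes. At the other end, Ptpn6, the phosphatase SHP-1, had 0.31 and 0.11, and Sarm1, a TIR-domain protein, had 0.31 and −0.01.

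**Figure D4:**
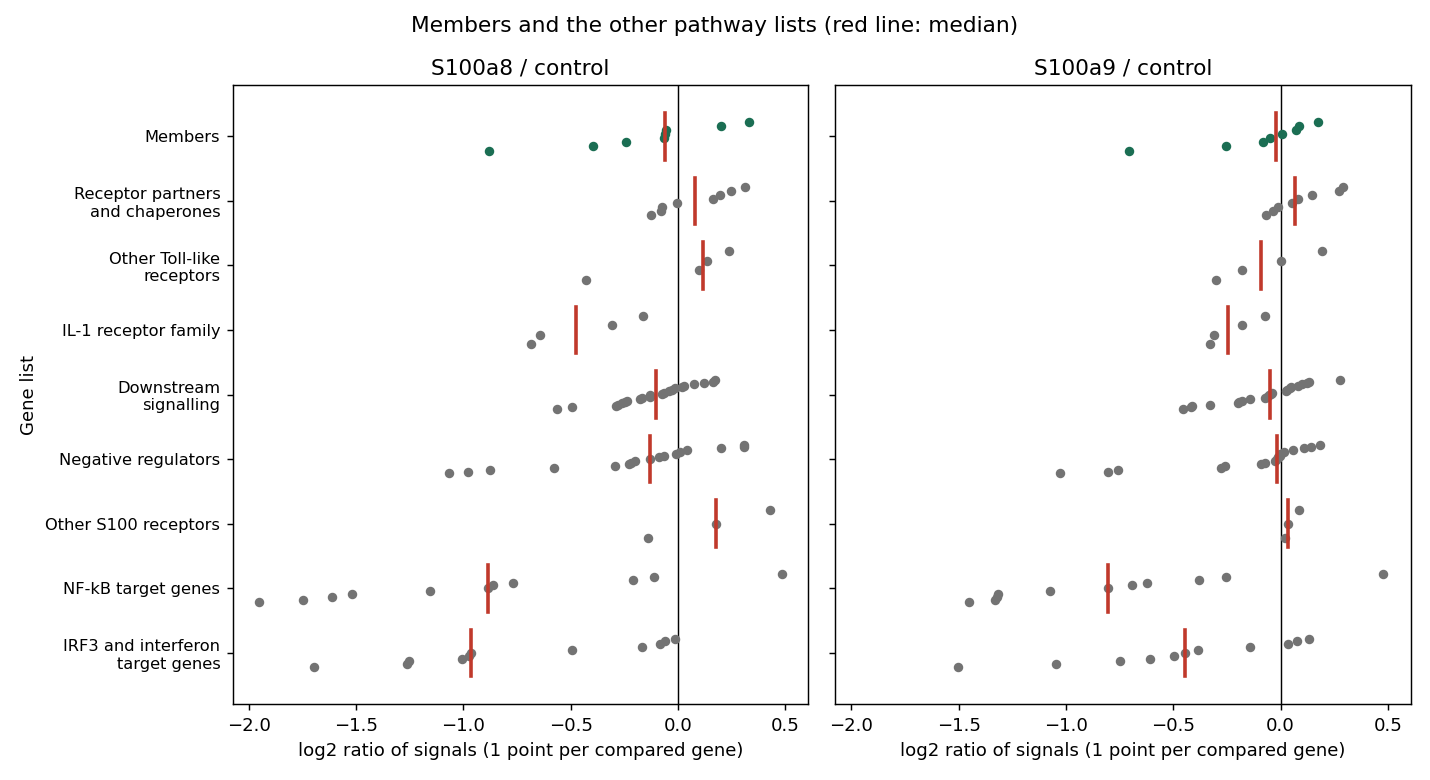
log2 ratio against control of each compared gene (1 point) in the members (green, top row) and in 8 further lists of pathway genes (grey), for S100a8 (left) and S100a9 (right); red lines are medians. The IL-1 receptor family has medians of −0.47 with S100a8 and −0.25 with S100a9, and the 2 rows of target genes have medians of −0.89 and −0.97 with S100a8 and of −0.80 and −0.44 with S100a9; the medians of the other grey rows lie from −0.13 to 0.18 with S100a8 and from −0.09 to 0.07 with S100a9.

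Lists of target genes of the 2 arms had lower median log2 ratios than the members. Of 19 listed NF-kB targets, 11 were compared. Among these, 10 were lower with either protein, 8 of them at least 1.5-fold, with medians of −0.89 and −0.80. That far below control were 1.91% of all compared genes with S100a8 and 0.853% with S100a9. The lists were chosen with earlier results of these data known. Without the filter on dim genes, the NF-kB list's medians were −0.29 and −0.38. Ccl2, a monocyte attractant, had log2 ratios of −1.95 and −1.45, and Cxcl3, a neutrophil attractant, −1.75 and −1.32, while Lcn2, which binds iron carriers, had 0.48 and 0.48. Of 11 compared Irf3 and interferon targets, 11 were lower with S100a8, 6 at least 1.5-fold, and 8 were lower with S100a9, 4 at least 1.5-fold. Below control by any amount were 47.5% of all compared genes with S100a8 and 48.1% with S100a9. Cxcl10 had −1.69 and −1.50, Rsad2 −1.26 and −1.05 and Ifit1 −1.25 and −0.61, whereas Irf7 had −0.49 and 0.08. The interferon beta gene Ifnb1 lay below the floor on each array. Other receptors described for these proteins or their relatives had 3 compared genes. Cd33 had 0.43 and 0.03, Bsg −0.14 and 0.02, and Nptn 0.18 and 0.09. Ager (61.1 to 72.0), Cd36, Cd69 and Alcam, listed with them, lay below the floor on each array.

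Tlr4, Ly96 and Cd14 are strongly expressed by myeloid cells, so markers of other cell types were read beside them. Of 15 macrophage and monocyte markers, 6 lay above the floor with S100a8 and 5 with S100a9, against 5 in the control, and their summed signal was 1729.6 with S100a8 and 1578 with S100a9, against 1314 in the control. Csf1r, Cd68 and Cd53 gave the highest of these signals. The part of these markers in the members' values was not tested. The defining markers Ptprc (32.0 to 44.9), Adgre1 (57.7 to 68.8), Itgam (9.31 to 12.6), Tyrobp and Spi1 lay below the floor on each array. The 6 compared macrophage and monocyte markers had medians of 0.42 with S100a8 and 0.34 with S100a9. Granulocyte, lymphoid and endothelial markers had 1, 3 and 3 compared genes. Their medians were 0.43, 0.36 and 0.27 with S100a8 and −0.11, 0.012 and 0.0027 with S100a9. The granulocyte value is that of Mpo alone, which lay near the floor (83.2 to 121). These marker values were not centred by brightness.

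Most compared fibroblast markers were below control. Of 7 compared, 6 were lower with S100a8 (median −0.28), 3 of them at least 1.5-fold. With S100a9, 5 were lower (median −0.17), 1 of them at least 1.5-fold. That far below control were 1.91% of all compared genes with S100a8 and 0.853% with S100a9. Below control by any amount were 47.5% of all compared genes with S100a8 and 48.1% with S100a9. The summed signal of the 11 listed was 13105 with S100a8 and 14219.9 with S100a9, against 13850.4 in the control. Pdgfrb, a growth factor receptor of mesenchymal cells, had log2 ratios of −0.92 with S100a8 and −0.76 with S100a9. Dcn had −0.92 and −0.28, and Pdgfra −0.69 and −0.17, while the surface glycoprotein Pdpn had 0.36 and 0.41. The collagen genes Col1a1, Col1a2 and Col3a1 had −0.13, −0.02 and −0.28 with S100a8, and −0.17, 0.07 and −0.06 with S100a9. Col1a2 was the brightest of the list (7385 to 7839). Lum, Thy1, Acta2 and Fap lay below the floor on each array. The part of these markers in the lower Ly96 signal was not tested. The 12 epithelial and colon markers had 4 compared genes, with medians of 0.04 and −0.12. Most markers of the labelled tissue were thus not seen above the floor: Cdh1, Krt8, Krt19, Vil1, Cdx1, Cdh17, Lgals4 and Muc2 lay below it on each array. Krt18 (1032 to 1447) and Krt20 (307 to 326) lay above it, and Epcam (85.5 to 113) and Cdx2 (101 to 122) just above it. The mesenchymal gene Vim was bright on all 3 arrays (15407 to 16033), and 7 of 8 mesenchymal markers were compared, with medians of −0.06 with S100a8 and −0.05 with S100a9.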

How the data were processed

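The deposited table holds 1 intensity per probe set and array, a linear signal from MAS5 according to what the submitters' processing notes name, as deposited by the authors. Its version, scaling target and detection calls are not stated. Because MAS5 takes off a mismatch signal, dim values are noisy, and scaling arrays alike would hide a change in total RNA per cell. Cultures were single, with biotin-labelled cRNA made from 1 µg of total RNA per the labels' protocols. Probe sets were named from the platform annotation, which can be old: 34945 had 1 symbol, 932 had several and were left out, and 64 AFFX controls were set aside. Of those with 1 symbol, 34741 matched a RefSeq gene table by Entrez number.

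Signals under the 50th percentile of all values were raised to it and log2 was taken, in Python 3.11.15 with pandas 2.3.3 and numpy 2.4.6. A gene was represented by the probe set of highest mean log2 signal and compared if that mean exceeded the floor. At least 1.5-fold served as a descriptive size. Of each pathway list, the 2 highest and 2 lowest log2 ratios in any comparison were named, and 3 genes nearest to Ly96. The members and lists were chosen with earlier results of these data known. The calculation was tested on simulated data with 2-fold changes planted in genes well above the floor. That test checks the code only and does not bear on the precision of the values here. Alternatives were other scalings, floors, filters, probe set rules and a 2-fold size, and centring by brightness in 20 bins was added after seeing the data.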

Additional observations from a re-analysis of the deposited data

How the results depend on the processing

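Precision is limited by 1 array per group, and dim signals are the noisiest. No paired analysis was possible because each group held 1 array, and no array could be left out. With no replicates, a log2 ratio or median was taken as moved when it shifted by at least a spread per probe set. This spread came from the gaps between 2 probe sets of a gene. It was 0.17, 0.13 and 0.15 (log2) for S100a8 and S100a9 against control and for S100a9 against S100a8. It holds no variation between cultures or arrays, since both probe sets share them. A count was taken as moved when it fell to or rose from 0, or changed more than 1.5-fold. Ly96 stayed at least 1.5-fold lower under all 9 alternatives that give it a ratio. Its log2 ratio ran from −0.93 to −0.84 with S100a8 and from −0.71 to −0.66 with S100a9. With 1 probe set well above each floor, the floor, filter and probe set alternatives could hardly change this value. Only the other scalings and centring by brightness could move it, and they gave both ends of these ranges. At a 2-fold size, 0 members in place of 1 were lower with either protein. The members' median ran from −0.11 to −0.03 with S100a8, from −0.05 to 0.03 with S100a9 (above 0 after median centring) and from 0.03 to 0.17 between the proteins. Ticam1 was not compared with the floor at the 65th percentile.

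Some list medians moved, in lists with few compared genes or with genes at the floor. With the floor at the 65th percentile, the other Toll-like receptors had −0.43 with S100a8, −0.30 with S100a9 and 0.13 between the proteins, and the interferon targets −0.73 with S100a8. With the floor at the 30th percentile, the interferon targets had −0.73 with S100a8 and the NF-kB targets −0.66 with S100a9. Without the filter on dim genes, the NF-kB targets had −0.29 with S100a8, −0.38 with S100a9 and 0 between the proteins, the interferon targets −0.49 with S100a8, and the other S100 receptors 0 with S100a8. With the mean of all probe sets, the IL-1 receptor family had −0.25 with S100a8 and −0.088 with S100a9, the other S100 receptors −0.087 with S100a8, and the other Toll-like receptors 0.059 between the proteins. With _x_at and _s_at probe sets passed over, the last had −0.24 between the proteins. Unfiltered lists include genes at the floor, whose ratios are 0 by construction; otherwise the cause was not tested.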
